A study of Mus musculus with 12 samples.

Results

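A set of 10 genes that act on proteins outside the cell or at its surface was followed in myeloid-derived suppressor cells (MDSCs), immunosuppressive immature myeloid cells grown here from mouse bone marrow. They were chosen by name, with earlier results of these data known, and are 10 of the 35303 gene symbols in the table of counts. They comprise 4 matrix metalloproteinases (Mmp12, Mmp13, Mmp14, and Mmp19), the membrane proteases Adam8 and Adam17, the tissue inhibitors Timp1 and Timp2, and the urokinase receptor Plaur with its ligand Plau. All 10 were counted in every library and passed the filter on low counts. The set was assembled as proteases other than the neutrophil granule enzymes, but RNA does not show where a product is stored, and the urokinase receptor is also known from neutrophil granules and vesicles.

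The cells came from wild-type female C57BL/6 mice aged 6 to 10 weeks, were grown with IL-6 and GM-CSF, and were purified as CD11b+Gr1+ cells. MDSC libraries came from cells without particles, MDSC-NP-Blk libraries from cells carrying blank PLGA nanoparticles joined to azide sugars on their surface by click chemistry, and CITED libraries from cells carrying the same kind of particle loaded with rapamycin, an inhibitor of mTOR. Each group had 4 biologically independent replicates, and a last culture of 24 hours with 40 ng/ml of IL-6 preceded RNA extraction in all 3 groups. Whether the cells of the MDSC group were also fed the azide sugar is not stated, and free rapamycin without particles was not analysed here. A tissue field in the labels names the CNS, whereas all 8 defining markers of CD11b+Gr1+ cells were present and 5 of 7 markers of neurons and glia (Snap25, Rbfox3, Gfap, Aqp4, and Olig2) were at 0 in all libraries. Mbp, of the same list, was at 76.9 to 86.4 CPM in the group means, and of the 4 microglia markers Sall1 was at 0 and Tmem119 at 56.4 to 74.5 CPM.

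Matrix metalloproteinases are zinc enzymes made as inactive precursors. Mmp12 is the elastase of macrophages, Mmp13 a collagenase, Mmp14 a membrane-anchored collagenase that also activates pro-MMP2, and Mmp19 a secreted enzyme that cleaves basement membrane proteins. ADAM proteases are anchored in the membrane, and ADAM17 sheds TNF and cytokine receptors from the cell surface. TIMP proteins bind the active site of metalloproteinases, and TIMP2 in addition helps MMP14 to activate pro-MMP2. Urokinase (Plau) bound to its receptor (Plaur) turns plasminogen into plasmin, which degrades fibrin and activates several of the metalloproteinases.

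The sequence upstream of the start site was compared among members, since AP-1 and PEA3 sites are textbook elements of metalloproteinase and urokinase receptor promoters. RefSeq windows (GRCm38.p6) were found for 8 of the 10 members, with 2 starts for Mmp12 and thus 9 windows of 250 bases before a start. Shown are both windows of Mmp12, those of Mmp13 and Plaur, and that of Timp2. Mmp12, Mmp13, and Plaur passed the fold change threshold in a comparison. The window of Timp2, like that of Adam8, which is not shown, holds none of the letters searched. Capitals mark the letters of AP-1 (TGANTCA), PEA3 (AGGAAG, or CTTCCT on the other strand), and the TATA box (TATAAA), each searched on both strands.
Mmp12, first start, chr9:7344147-7344396, plus strand: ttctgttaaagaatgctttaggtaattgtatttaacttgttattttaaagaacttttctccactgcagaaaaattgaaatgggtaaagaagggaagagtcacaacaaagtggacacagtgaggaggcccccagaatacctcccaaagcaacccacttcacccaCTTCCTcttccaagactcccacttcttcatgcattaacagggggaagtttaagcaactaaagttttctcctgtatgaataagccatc
Mmp12, second start, chr9:7347124-7347373, plus strand: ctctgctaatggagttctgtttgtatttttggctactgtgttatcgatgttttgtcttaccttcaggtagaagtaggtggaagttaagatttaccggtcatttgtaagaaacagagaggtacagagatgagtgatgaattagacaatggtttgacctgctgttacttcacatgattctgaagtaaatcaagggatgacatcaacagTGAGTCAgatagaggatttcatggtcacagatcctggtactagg
Mmp13, chr9:7272264-7272513, plus strand: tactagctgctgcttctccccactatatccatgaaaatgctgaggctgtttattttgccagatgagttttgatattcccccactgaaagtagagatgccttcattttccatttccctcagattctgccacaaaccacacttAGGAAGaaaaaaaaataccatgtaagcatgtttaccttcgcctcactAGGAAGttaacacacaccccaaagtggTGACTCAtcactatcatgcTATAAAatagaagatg
Plaur, chr7:24462233-24462482, plus strand: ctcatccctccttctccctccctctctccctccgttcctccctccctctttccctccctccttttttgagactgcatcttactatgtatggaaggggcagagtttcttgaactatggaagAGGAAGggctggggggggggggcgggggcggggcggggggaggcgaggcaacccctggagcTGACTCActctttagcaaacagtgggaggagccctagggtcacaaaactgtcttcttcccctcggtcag
Timp2, chr11:118355412-118355661, minus strand: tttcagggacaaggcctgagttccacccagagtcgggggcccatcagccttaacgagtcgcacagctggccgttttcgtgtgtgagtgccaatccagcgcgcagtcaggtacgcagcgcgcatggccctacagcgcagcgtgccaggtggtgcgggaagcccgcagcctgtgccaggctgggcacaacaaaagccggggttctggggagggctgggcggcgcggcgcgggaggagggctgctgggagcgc

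AP-1 letters stood in a window of 3 members, Mmp12 (second start, from -44 to -38), Mmp13 (-35 to -29), and Plaur (-69 to -63). Positions are counted back from the start site. The window of the first start of Mmp12 holds no AP-1 letters. These letters occur in 6.75% of all 32851 windows of this length, a share per window, whereas Mmp12 has 2 windows. PEA3 letters stood in windows of 6 members (Mmp12, Mmp13, Mmp14, Adam17, Timp1, and Plaur) and occur in 29.5% of all windows. TATA box letters stood in that of Mmp13 alone (12.4% of all windows), and the NF-kB motif was found in the windows of 0 members (0.98% of all windows). The motifs did not overlap each other in the windows shown. These matches describe letters only, and binding was not measured.

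Libraries held 20604809 to 37855478 gene counts, and 3 counts, taken as the smallest amount that could be shown, made up 7.92e-06% to 1.46e-05% of a library (counting error only). Counts were scaled by TMM factors, with ranges of 1.12 to 1.15 (MDSC), 0.938 to 0.947 (MDSC-NP-Blk), and 0.921 to 0.944 (CITED). The 20 most abundant symbols took 13.3% to 14.1% of the counts in MDSC, 15.8% to 16.2% in MDSC-NP-Blk cells, and 15.7% to 16.2% in CITED cells. Scaling by library totals alone lowered the median log2 fold change of genes by 0.27 for CITED against MDSC and by 0.26 for MDSC-NP-Blk against MDSC, and fold changes of members near 0 turned their sign under it. The relation of expression to transcript length also differed, with a rank correlation across 10543 genes of 0.22 to 0.35 in MDSC libraries, -0.42 to 0.09 with blank particles, and -0.34 to -0.19 with loaded ones.

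The first question was how cells with loaded nanoparticles differed from unmodified cells. In CITED, 7 of the 10 members (Mmp12, Mmp13, Mmp14, Mmp19, Adam8, Timp2, and Plaur) rose relative to MDSC at an adjusted p below 0.05 and 0 fell, where 22.2% of all 17676 genes tested rose and 22.2% fell. Among the 10556 genes with a mean normalized count of at least 50, as all members have, 35.6% rose and 32.3% fell. Mmp12 and Plaur also reached a log2 fold change of 1, as 9.99% of all genes did in either direction. The libraries of the groups did not overlap for 8 members, against 42.5% of all genes and 64.8% of those at that count, and the median log2 fold change of the members was 0.69, against -0.05 for all genes tested. Since the members were chosen with earlier results of these data known, the shares here and in the comparisons below are a description and no test. In bulk RNA, more cells of a type and more RNA per cell cannot be told apart.

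The next question was how blank nanoparticles compared with none. Relative to MDSC, 6 members (Mmp12, Mmp14, Mmp19, Adam17, Timp2, and Plaur) rose in MDSC-NP-Blk and Plau fell, where 19.9% of all genes rose and 18.6% fell (32.1% and 28.2% at a mean count of at least 50). In edgeR 0 members reached a log2 fold change of 1, as 4.74% of all genes did, and DESeq2 also gave 0, with 7 members under the adjusted p threshold. Libraries did not overlap for 7 members, against 35.6% of all genes and 54.9% of those at that count, and the median log2 fold change of the members was 0.32, against -0.03 for all genes tested. Under library totals alone the split became 3 higher and 3 lower, and for CITED against MDSC it became 7 higher and 2 lower. Both comparisons share the 4 MDSC libraries.

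The comparison of CITED with MDSC-NP-Blk sets cells with rapamycin-loaded particles against cells with blank ones. Relative to MDSC-NP-Blk, 7 members (Mmp12, Mmp13, Mmp14, Mmp19, Adam8, Plaur, and Plau) rose in CITED and Adam17 fell, where 10.5% of all genes rose and 11.4% fell (16.9% and 18% at a mean count of at least 50). Mmp13 alone reached a log2 fold change of 1, as 2.65% of all genes did, and its 95% interval, 0.82 to 1.20, spans that threshold. Libraries did not overlap for 8 members, against 21.2% of all genes and 32.7% of those at that count. The median log2 fold change of the members was 0.39, against 0.00 for all genes tested.

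**Figure D1:**
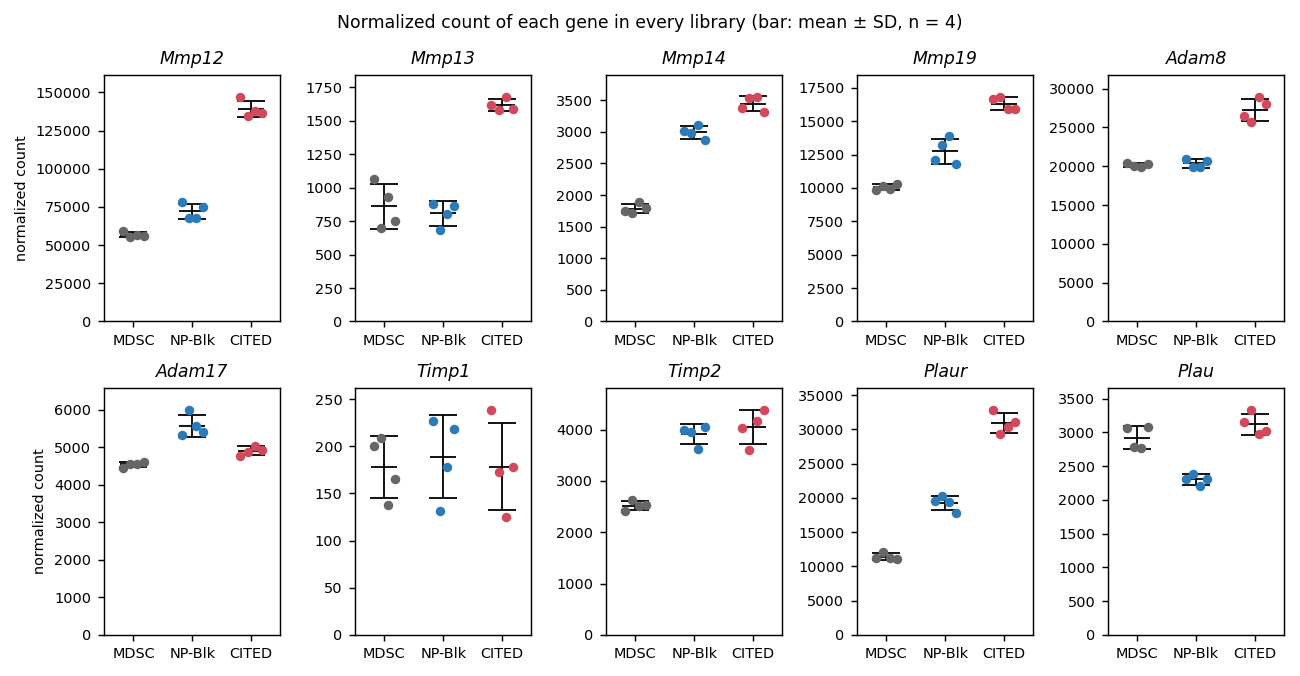
Normalized count (y axis, from 0) of each of the 10 genes in the libraries of MDSC, MDSC-NP-Blk (NP-Blk), and CITED; points are libraries and bars the mean ± SD of 4. Mmp12, Mmp14, Mmp19, and Plaur step upward through the 3 groups without overlap, Mmp13 and Adam8 stand apart in CITED, Plau is lowest in MDSC-NP-Blk, and Timp1 overlaps throughout.

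**Figure D2:**
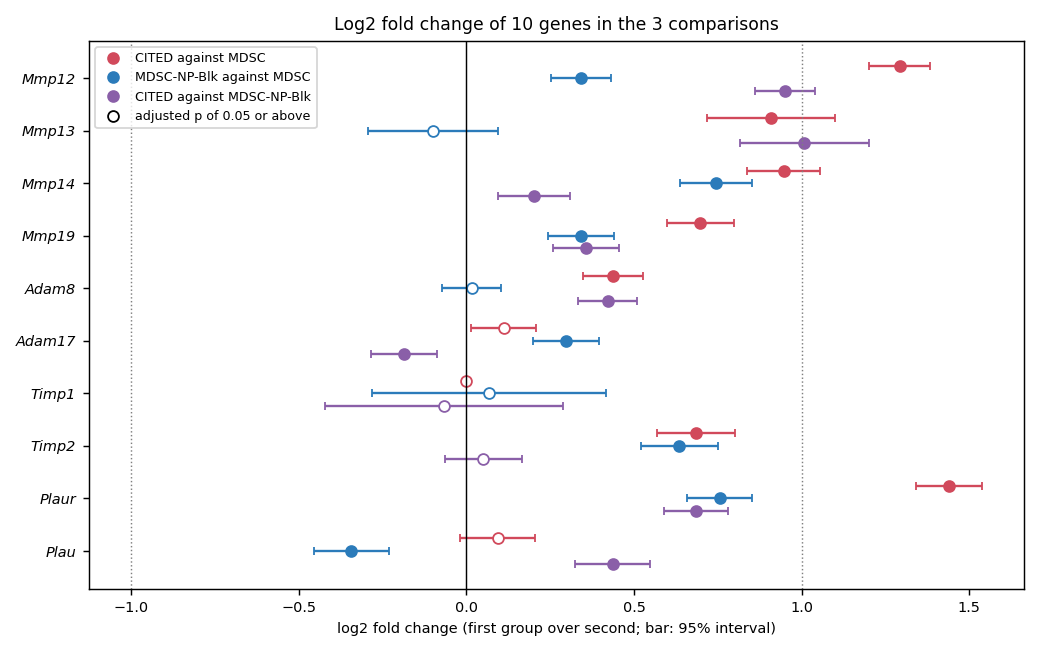
Log2 fold change (x axis) of each gene (y axis) in the 3 comparisons, each marked by a colour and read as the first group over the second, with 95% intervals as bars, except for Timp1 in CITED against MDSC, whose estimate of 0.00 has no interval. Open points have an adjusted p of 0.05 or above, dotted lines mark a log2 fold change of 1 in either direction, and Plaur (1.44) and Mmp12 (1.29) in CITED against MDSC lie farthest to the right.

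Mmp12 (chr9:7344381-7369499, plus strand, GRCm39) had the highest level per kilobase of transcript among the 10 genes in each group. Its normalized count was 58958, 55524, 56823, and 55851 in the MDSC libraries, 78008, 67581, 67797, and 74659 in MDSC-NP-Blk, and 146990, 134840, 137960, and 136660 in CITED. The 3 groups did not overlap, and the CITED libraries stood farthest from the others. CITED exceeded MDSC by a log2 fold change of 1.29 ± 0.0448 (SE, adjusted p = 2.99e-22), or 2.45-fold. MDSC-NP-Blk exceeded MDSC by 0.34 ± 0.0441 (adjusted p = 7.07e-08), a difference that under library totals alone was 0.08 (adjusted p = 0.118), and CITED exceeded MDSC-NP-Blk by 0.95 ± 0.0444 (adjusted p = 9.36e-18). Mmp12 took 0.252% to 0.269% of all counts of an MDSC library, 0.259% to 0.297% of an MDSC-NP-Blk library, and 0.516% to 0.549% of a CITED library, so that before TMM scaling the first 2 groups overlapped.

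Mmp13, the neighbouring collagenase gene (chr9:7272514-7283331, plus strand, GRCm39), rose in CITED relative to both other groups. Normalized counts were 1062.5, 694.67, 927.51, and 752.83 in MDSC, 881.37, 681.3, 802.66, and 861.88 in MDSC-NP-Blk cells, and 1620.2, 1583.5, 1677.4, and 1585.6 in CITED cells. MDSC and MDSC-NP-Blk libraries lay among each other, and all CITED libraries lay above both. The log2 fold change was 0.91 ± 0.0936 for CITED against MDSC (adjusted p = 3.56e-10) and 1.01 ± 0.0946 for CITED against MDSC-NP-Blk (adjusted p = 2.42e-10). The latter was below 1 without MDSC-NP-Blk replicate 2 or CITED replicate 3, with a lowest value of 0.93, and under library totals alone (0.996), so that no member was then called in this comparison. Between MDSC-NP-Blk and MDSC it was -0.10 (95% interval -0.29 to 0.09, adjusted p = 0.442), and -0.36 (adjusted p = 0.00211) under library totals alone. The coefficient of variation was 19.5% over the MDSC libraries and 2.71% over the CITED libraries, where counting error alone gives 3.33% and 2.65%.

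Mmp14 (chr14:54668878-54682821, plus strand, GRCm39) rose in both particle groups. Its normalized counts were 1745.9, 1722.4, 1890.9, and 1788.5 in MDSC, 3007.6, 2985.2, 3110.6, and 2868.7 in MDSC-NP-Blk cells, and 3375.9, 3536.4, 3552.5, and 3311.4 in CITED cells. The MDSC libraries stood far below both particle groups, which were close to each other without overlapping. The log2 fold change was 0.74 ± 0.0533 with blank particles against none (adjusted p = 1.16e-13), 0.20 ± 0.0525 for CITED against MDSC-NP-Blk (adjusted p = 0.00393), and 0.95 ± 0.0533 for CITED against MDSC (adjusted p = 9.73e-17).

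Mmp19 (chr10:128626773-128636695, plus strand, GRCm39) rose in each particle group. The normalized counts were 9828.8, 10162, 9932.7, and 10298 in MDSC, 12064, 13206, 13855, and 11821 in MDSC-NP-Blk cells, and 16671, 16808, 15873, and 15903 in CITED cells. No group overlapped another, and MDSC-NP-Blk libraries lay between the other groups. MDSC-NP-Blk exceeded MDSC by a log2 fold change of 0.34 ± 0.0487 (adjusted p = 4.82e-07), which was 0.08 (adjusted p = 0.193) under library totals alone. CITED exceeded MDSC-NP-Blk by 0.36 ± 0.0486 (adjusted p = 5.53e-07) and MDSC by 0.70 ± 0.0488 (adjusted p = 2.93e-14).

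The ADAM proteases differed from each other in pattern. Adam8 (chr7:139558845-139572475, minus strand, GRCm39), a leukocyte sheddase, had normalized counts of 20376, 20034, 19914, and 20249 in MDSC, 20993, 19906, 19921, and 20615 in MDSC-NP-Blk cells, and 26494, 25668, 28918, and 27963 in CITED cells. Only the CITED libraries stood apart. CITED exceeded MDSC by a log2 fold change of 0.44 ± 0.0437 (adjusted p = 1.85e-10) and MDSC-NP-Blk by 0.42 ± 0.0437 (adjusted p = 2.19e-09). Between MDSC-NP-Blk and MDSC the value was 0.02 (95% interval -0.07 to 0.10, adjusted p = 0.828), and -0.25 (adjusted p = 8.69e-06) under library totals alone.

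Adam17 (chr12:21373510-21423672, minus strand, GRCm39) was highest with blank particles. The normalized counts were 4456.7, 4550.6, 4555.6, and 4605.6 in MDSC, 5335.4, 5984.1, 5578, and 5401.7 in MDSC-NP-Blk cells, and 4759.1, 4883.9, 5042.3, and 4930.8 in CITED cells. The CITED libraries lay between the other groups and overlapped neither. MDSC-NP-Blk exceeded MDSC by a log2 fold change of 0.30 ± 0.0481 (adjusted p = 4.45e-06; 0.03, adjusted p = 0.615, under library totals alone), and CITED lay below MDSC-NP-Blk, at -0.19 ± 0.0481 (adjusted p = 0.00391). For CITED against MDSC the value was 0.11 ± 0.0482 (adjusted p = 0.0614). This last difference passed the threshold under 5 alternatives (adjusted p from 0.0482 to 1.17e-05), the last with a correction for transcript length (0.23), and it turned to -0.16 (adjusted p = 0.00535) under library totals alone. Exons of Iah1 overlap those of Adam17 on the opposite strand.

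Of the inhibitors, Timp2 rose with both kinds of particle and Timp1 passed the test in no comparison. Timp2 (chr11:118191887-118246566, minus strand, GRCm39) had normalized counts of 2413.6, 2626.4, 2510.8, and 2522.2 in MDSC, 4000, 3960.9, 3624.5, and 4060.3 in MDSC-NP-Blk cells, and 4035.5, 3595.1, 4178.6, and 4379.4 in CITED cells. All MDSC libraries lay below the others, and the particle groups overlapped. The log2 fold change against MDSC was 0.64 ± 0.0569 in MDSC-NP-Blk (adjusted p = 2.69e-11) and 0.69 ± 0.0570 in CITED (adjusted p = 2.25e-12), and between the particle groups it was 0.05 (95% interval -0.07 to 0.16, adjusted p = 0.595). Exons of Cep295nl overlap those of Timp2 on the same strand.

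Timp1 (chrX:20736316-20740976, plus strand, GRCm39) had the lowest level per kilobase of the set in every group. Its normalized counts were 200.54, 208.4, 137.24, and 165.06 in MDSC, 227.04, 131.02, 178.25, and 218.69 in MDSC-NP-Blk cells, and 238.27, 172.42, 125.45, and 178.0 in CITED cells. The groups overlapped, and the spread within each was larger than counting error, with coefficients of variation of 18.5% in MDSC, 23.3% in MDSC-NP-Blk cells, and 25.9% in CITED cells. The log2 fold change was 0.00 for CITED against MDSC (adjusted p = 1.0) and 0.07 for MDSC-NP-Blk against MDSC (95% interval -0.28 to 0.42, adjusted p = 0.803). It was -0.07 for CITED against MDSC-NP-Blk (95% interval -0.42 to 0.29, adjusted p = 0.862), so differences within these intervals were not detectable.

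Plaur and Plau, receptor and ligand, differed in pattern. Plaur (chr7:24161875-24175394, plus strand, GRCm39) had normalized counts of 11144, 12115, 11209, and 11126 in MDSC, 19543, 20224, 19402, and 17787 in MDSC-NP-Blk cells, and 32803, 29382, 30381, and 31121 in CITED cells. The 3 groups were widely separated. The log2 fold change was 0.76 ± 0.0475 with blank particles against none (adjusted p = 4.74e-15) and 0.68 ± 0.0474 for CITED against MDSC-NP-Blk (adjusted p = 1.77e-13). For CITED against MDSC it was 1.44 ± 0.0481 (adjusted p = 1.18e-22), or 2.71-fold, the largest of the 10 genes in the main fit. With the correction for transcript length the value of Plaur was 1.27 in this comparison, below the 1.35 of Mmp12. For blank particles against none that correction gave 0.60 for Plaur, below Mmp14 (0.72) and Timp2 (0.68).

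Plau (chr14:20886722-20893453, plus strand, GRCm39) fell with blank particles. Its normalized counts were 3059.2, 2786.3, 2768.7, and 3072.7 in MDSC, 2312.5, 2385.9, 2200.5, and 2312 in MDSC-NP-Blk cells, and 3152.7, 3326, 2975.2, and 3013.4 in CITED cells. MDSC-NP-Blk libraries lay below all others, while MDSC and CITED overlapped. MDSC-NP-Blk differed from MDSC by a log2 fold change of -0.34 ± 0.0554 (adjusted p = 4.04e-06), and CITED exceeded MDSC-NP-Blk by 0.44 ± 0.0556 (adjusted p = 1.54e-07). CITED against MDSC gave 0.09 (95% interval -0.02 to 0.20, adjusted p = 0.184), and -0.18 (adjusted p = 0.00644) under library totals alone.

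At most 0.641% of the 31-base words of a member's canonical transcript also occur in transcripts of other genes. Other transcripts of the members were not searched. Exons of Mmp12, Mmp14, Mmp19, Adam8, and Plau, like those of Adam17, overlap another gene on the opposite strand, and whether the counting used strand is not stated. To compare genes with each other, normalized counts were divided by the length of the canonical transcript in kilobases. In MDSC the mean levels per kilobase ran from Mmp12 (15744) through Plaur (7402), Adam8 (6469), Mmp19 (2905), Plau (1244), Adam17 (1015), Timp2 (672), Mmp14 (641), and Mmp13 (321.5) to Timp1 (190). Timp2 and Mmp14 overlapped, and the other neighbours did not. The first 4 genes kept this order in all groups. In CITED, Mmp12 (38568) ranked 36 of 35220 genes with a length and Plaur (20079) ranked 96, whereas Mmp12 ranked 83 in MDSC and 99 in MDSC-NP-Blk. Below Mmp19, CITED had Plau (1327) and Mmp14 (1236), which overlapped, then Adam17 (1096) and Timp2 (1080), which also overlapped. In MDSC-NP-Blk, Adam17 (1246) stood above Mmp14 (1074), Timp2 (1044), and Plau (981), whose neighbours in this order overlapped.

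**Figure D3:**
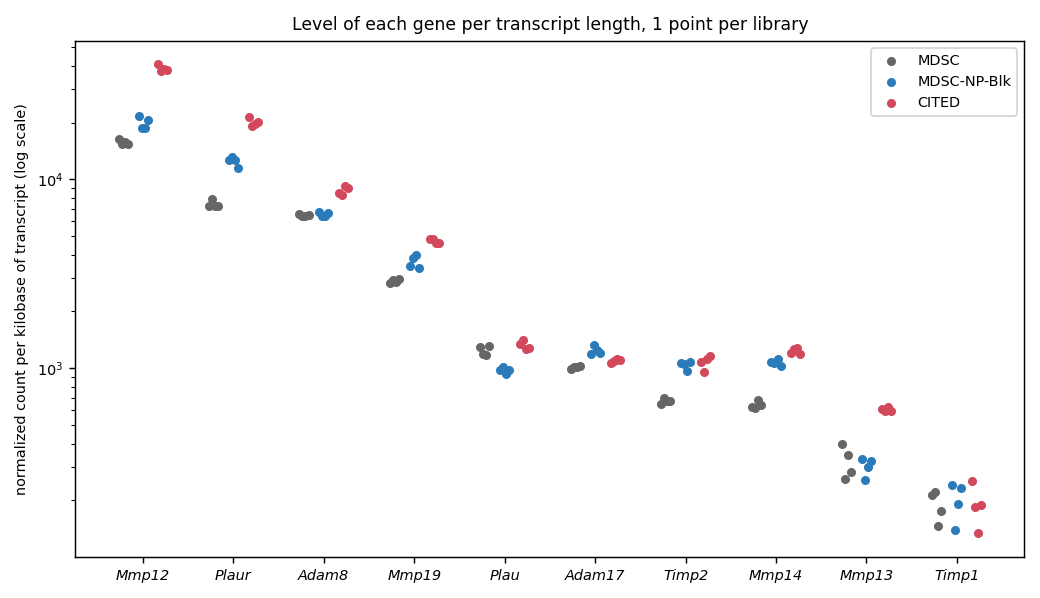
Normalized count per kilobase of transcript (y axis, log scale) of the 10 genes, ordered along the x axis by their mean in MDSC, with a point per library of MDSC, MDSC-NP-Blk, and CITED. Mmp12 is highest and Timp1 lowest in each group, and Mmp14 and Timp2 lie close together.

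Ratios of levels per kilobase within a library do not depend on how libraries are scaled. Dividing by a fixed length does not remove the relation of expression to transcript length, which differed between groups. In all, 6 ratios were compared over the 3 comparisons with exact 2-sided permutation tests (18 tests, smallest possible p = 0.0286, which is 0.0468 after adjustment). Plaur to Plau was 5.97 ± 0.532 in MDSC, 12.7 ± 0.723 in MDSC-NP-Blk cells, and 15.2 ± 1.14 in CITED cells (SD, n = 4), and each pair of groups was apart (exact p = 0.0286). The sum of the 4 metalloproteinases to the sum of the 2 inhibitors was 22.8 ± 1.43 in MDSC, 20.1 ± 0.658 in MDSC-NP-Blk cells, and 35.6 ± 2.45 in CITED cells. CITED was above both other groups (exact p = 0.0286), and MDSC-NP-Blk overlapped MDSC (exact p = 0.0571). Mmp12 made up 80.3%, 79.8%, and 85.5% of the metalloproteinase sum in MDSC, MDSC-NP-Blk, and CITED, and Timp2 78%, 83.8%, and 85% of the inhibitor sum, so this ratio mostly follows Mmp12 and Timp2. Adam8 to Adam17 was 6.38 ± 0.132 in MDSC, 5.26 ± 0.388 in MDSC-NP-Blk cells, and 7.99 ± 0.306 in CITED cells, with all pairs apart (exact p = 0.0286). With the length correction, the log2 fold changes in CITED against MDSC were 0.45 for Adam8 and 0.23 for Adam17, against 0.44 and 0.11 without it.

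Mmp14 to Timp2, the pair that acts on pro-MMP2, was 0.955 in MDSC, 1.03 in MDSC-NP-Blk cells, and 1.15 in CITED cells. CITED and MDSC alone were apart (exact p = 0.0286). With the length correction, their log2 fold changes in CITED against MDSC were 0.93 for Mmp14 and 0.76 for Timp2, against 0.95 and 0.69 without it. Mmp12 to Mmp13 was 50.2 in MDSC, below the 66.5 of MDSC-NP-Blk and the 63.8 of CITED (exact p = 0.0286 for both), and the particle groups overlapped. Timp2 to Timp1 was 3.64 in MDSC, 5.42 in MDSC-NP-Blk cells, and 5.98 in CITED cells, with an exact p of 0.0571 for either particle group against MDSC.

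**Figure D4:**
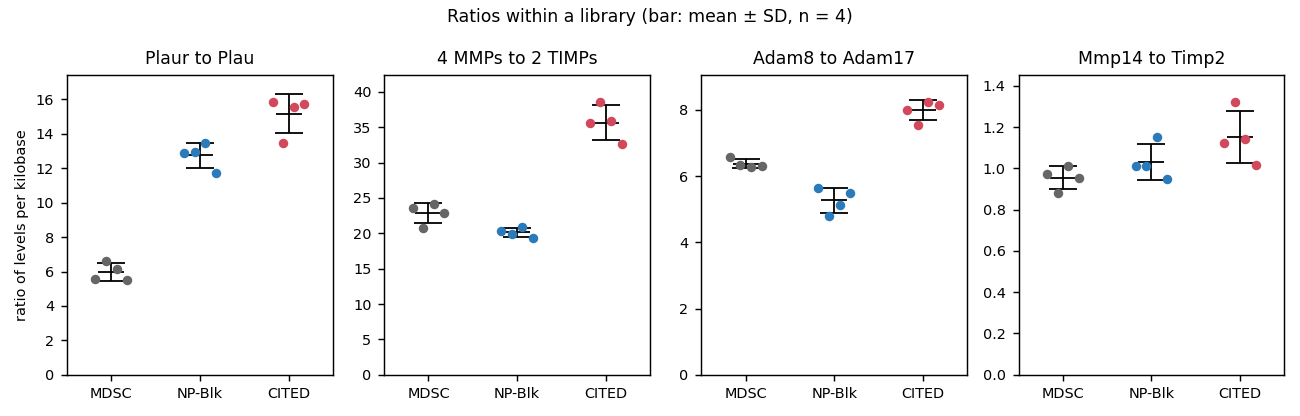
Ratio of levels per kilobase within a library (y axis, from 0) for Plaur to Plau, 4 metalloproteinases to 2 inhibitors, Adam8 to Adam17, and Mmp14 to Timp2; points are libraries and bars the mean ± SD of 4. Plaur to Plau is 5.52 to 6.63 in MDSC and 11.7 to 15.9 in the particle groups, and the ratio of metalloproteinases to inhibitors is highest in CITED.

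Genes around the members were read from lists of their families and partners, and the counts below are a description and no test. In CITED against MDSC, 22.2% of all genes tested rose and 22.2% fell (35.6% and 32.3% at a mean count of at least 50). With blank particles against none, the shares were 19.9% and 18.6% (32.1% and 28.2%). In CITED against blank particles, they were 10.5% and 11.4% (16.9% and 18%). Of 19 other matrix metalloproteinases, 13 were tested and 4 had a mean normalized count of at least 50. In CITED against MDSC 4 rose and 0 fell, with Mmp8, the neutrophil collagenase, at a log2 fold change of 1.47 (adjusted p = 2.43e-25) and the gelatinase Mmp9 at 1.23 (adjusted p = 2.02e-20). With blank particles against none 4 rose, and in CITED against blank particles 3 rose, with 0 lower in either. The median log2 fold change over the 4 was 1.15 for CITED against MDSC, and it was 0.02 over all genes at that count. Among 15 tested ADAM and ADAMTS genes, 3 rose and 4 fell in CITED against MDSC, 2 rose and 2 fell with blank particles against none, and 3 rose and 0 fell in CITED against blank particles. Of the 5 with a mean normalized count of at least 50, 2 rose and 0 fell in CITED against MDSC. Adam15 rose by a log2 fold change of 0.49 (adjusted p = 1.57e-10) and Adam19 by 0.85 (adjusted p = 1.31e-10) in CITED against MDSC, while Adam10, the nearest relative of Adam17, was at -0.09 (adjusted p = 0.207). Of 3 other inhibitors tested, 0 rose and 1 fell in CITED against MDSC, 1 rose and 0 fell with blank particles against none, and 0 rose and 2 fell in CITED against blank particles. In CITED against MDSC, Reck, a membrane-anchored one, was at -0.61 (adjusted p = 0.000534) and Timp3 at -0.07 (adjusted p = 0.745).

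Of the genes that act with urokinase and plasminogen, Serpinb2 (plasminogen activator inhibitor 2) had a normalized count of 3890 ± 272 in MDSC, 11805 ± 241 in MDSC-NP-Blk cells, and 16306 ± 923 in CITED cells (SD, n = 4). CITED exceeded MDSC by a log2 fold change of 2.07 (adjusted p = 6.58e-26). Lrp1, which takes up urokinase bound to its receptor and inhibitor, was at -0.47 (adjusted p = 0.000105) with overlapping libraries, and the plasminogen receptor Plgrkt at 0.42 (adjusted p = 2.65e-06). Over all 13 plasminogen genes tested beside the members, 4 rose and 2 fell in CITED against MDSC. With blank particles against none 4 rose and 2 fell, and in CITED against blank particles 3 rose and 3 fell. Over all genes tested, the shares that rose and fell were 22.2% and 22.2%, 19.9% and 18.6%, and 10.5% and 11.4%.

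Among 11 partners in the maturation of ADAM17, 5 rose and 2 fell in CITED against MDSC, 2 rose and 2 fell with blank particles against none, and 3 rose and 0 fell in CITED against blank particles. Rhbdf2 (iRhom2), which carries ADAM17 to the surface of myeloid cells, rose by a log2 fold change of 0.81 in CITED against MDSC (adjusted p = 1.06e-15) and by 0.50 in MDSC-NP-Blk against MDSC (adjusted p = 3.05e-10). Furin, which removes its prodomain, was at 0.40 (adjusted p = 9.86e-09) and 0.11 (adjusted p = 0.0733). The 2 that fell were Pdia6, at -0.41 (adjusted p = 8.87e-09) and -0.49 (adjusted p = 4.33e-10), and Pcsk7, at -0.21 (adjusted p = 0.023) and -0.28 (adjusted p = 0.00237). Of 19 genes for substrates shed by ADAM17, 12 rose and 4 fell in CITED against MDSC. With blank particles against none 11 rose and 2 fell, and in CITED against blank particles 3 rose and 3 fell. Beside both lists, the shares over all genes tested were 22.2% and 22.2%, 19.9% and 18.6%, and 10.5% and 11.4%. Csf1r was at 1.00 in CITED against MDSC (adjusted p = 1.45e-19) and Vcam1 at -2.09 (adjusted p = 3.29e-17). Shedding itself was not measured.

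Of 12 tested surface partners of TIMP1, MMP14, and the urokinase receptor, 9 rose and 1 fell in CITED against MDSC. With blank particles against none 9 rose and 0 fell, and in CITED against blank particles 6 rose and 4 fell. Over all genes tested, the shares that rose and fell were 22.2% and 22.2%, 19.9% and 18.6%, and 10.5% and 11.4%. The formyl peptide receptors Fpr1 (log2 fold change 1.16, adjusted p = 6.41e-15) and Fpr2 (1.15, adjusted p = 1.37e-17) had the largest values in CITED against MDSC. Itgb3, the integrin chain of the vitronectin receptor, was at -0.54 (adjusted p = 1.19e-06). Over the genes of a list with a mean normalized count of at least 50, the median log2 fold change in CITED against MDSC was 0.08 for the 5 ADAM and ADAMTS genes, 0.15 for 9 plasminogen genes, and 0.26 for 8 ADAM17 partners. It was 0.52 for 15 substrates and 0.33 for the 12 surface partners.

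The genes whose log2 CPM ran most like that of a member over the 12 libraries, among 10556 genes, are given as a description, since the libraries share their groups and scaling. For Plaur these were the chemokine gene Ccl6 (Pearson r = 0.997), Rab7, and Atp6v0c, and for Mmp12 they were the lysosomal protease gene Ctsd (r = 0.994), Ifi27, and the ferritin gene Ftl1. Mmp14 was closest to Arl4c (r = 0.993), Ehd1, and Egr2, Timp2 to Tbc1d10b (r = 0.992), and Mmp19 to Mfsd1 (r = 0.993). Adam8 was closest to Slc11a1 (r = 0.979), Adam17 to Cyb561a3 (r = 0.971), Mmp13 to Gclm (r = 0.958), and Plau to Pde1c (r = 0.954), Msr1, and Slc37a2. For Timp1 the closest was Psma1, at an r of 0.839.

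Markers of cells that also make these proteases moved between groups. The 7 macrophage markers summed to 587 to 619 CPM in MDSC, 477 to 546 in MDSC-NP-Blk cells, and 689 to 760 in CITED cells, with Cd68 higher in CITED (514 CPM, against 247 in MDSC) and C1qa lower (1.37 CPM, against 22.6). Of these 7, 2 rose and 5 fell in CITED against MDSC. The 6 osteoclast markers summed to 149 to 156 CPM in MDSC, 132 to 151 in MDSC-NP-Blk cells, and 225 to 233 in CITED cells, with Calcr at 0 in all libraries. In CITED against MDSC, Atp6v0d2 (log2 fold change 0.61) and Dcstamp (1.26) rose, Ocstamp fell by 1.69 on the log2 scale (adjusted p = 2.11e-13), and Acp5 (log2 fold change 0.16) and Ctsk (-0.13) did not pass the test. The 7 neutrophil markers summed to 12240 to 12830 CPM in MDSC, 17540 to 18097 in MDSC-NP-Blk cells, and 10191 to 11369 in CITED cells. Most of this sum is Ngp and Ltf, which with Camp fell in CITED against MDSC (3 of 7), whereas the other 4 rose, Retnlg by a log2 fold change of 1.61, Csf3r by 1.54, Cxcr2 by 0.80, and Ly6g by 0.22. Of the 5 monocyte markers, 1 rose and 3 fell in CITED against MDSC. Csf1r rose by a log2 fold change of 1.00, F13a1 (-2.63), Ccr2 (-1.18), and Ly6c2 (-0.35) fell, and Cx3cr1 (0.18) did not pass the test. The part of these shifts in the values of Mmp12, Mmp13, Mmp14, and Plaur was not tested. Stromal cells, another source of Mmp13, Mmp14, and Timp2, had 9 markers that summed to 10.8 to 21.8 CPM over all libraries, with Cxcl12 and Lum at 0 and Col3a1 and Pdgfra at or under 3 counts.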

How the data were processed

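Poly(A) RNA was sequenced from 12 libraries, 4 in each group, and groups were taken from the sample titles. The authors quantified reads with Salmon 1.4.0 against GENCODE transcripts of GRCm39, summed them per gene with tximport (R 4.3.2 is named in the submitters' processing notes), and deposited whole-number counts per symbol without normalization. An entry with a blank symbol (0 counts) was left out. The annotation release is not given in the sources used here, and gene positions and lengths came from GENCODE M39 of GRCm39.

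The 17676 symbols with at least 2 counts over all libraries were tested in R 4.3.3 with edgeR 4.0.16 (TMM, glmQLFit and glmQLFTest, group as the only term, all 12 libraries, common coefficient of biological variation 9.03%), with Benjamini-Hochberg adjustment over all genes in a comparison. A call needed an adjusted p below 0.05 together with a log2 fold change of 1 or more in size, the thresholds of the study. Standard errors are the fold change divided by the root of F, and 95% intervals use the t quantile of the fit. Normalized counts are on the scale of the mean library.

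The members and lists were chosen with earlier results of these data known. From each list the 2 genes with the lowest p in each direction and comparison were eligible to be named, among those that passed and had a mean normalized count of at least 50, and for each member the 3 genes of highest correlation. Adam10 and Timp3 met this rule in another comparison than the one they are quoted for. On simulated counts with the same layout the steps called 201 of 17289 genes, among them all 200 that had been changed. Those changes were all larger than the fold change threshold and lay in genes well above the low-count filter, so smaller changes were not tried. Same-numbered replicates did not deviate together (correlations of -0.0597 to 0.14), so a replicate block was fitted as an alternative only. Alternatives were DESeq2 1.42.0, other scalings, other filters, fits to only the 8 libraries compared, robust dispersion, the replicate block, a loess length correction (span 0.5), no fold change threshold, and leaving out each library. Upstream sequences are those of RefSeq (GRCm38.p6), searched over 32851 windows. Tables and plots were made in Python 3.11.15 (matplotlib 3.10.9, pandas 2.3.3, numpy 2.4.6). Some genes of the lists are counted but not reported by name here.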

Additional observations from a re-analysis of the deposited data

Results flagged for a closer look

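Plaur had 1 library that stood apart within its group. MDSC replicate 2 had a normalized count of 12115, and the gap to the next MDSC library made up 0.916 of the range of the group, above the limit of Dixon's test at the 95% level. Such a gap was found in 1 of the 30 groups of 4 that were looked at, and chance gives it in about 1 in 20. With any single library left out, the log2 fold change of Plaur stayed between 1.41 and 1.47 for CITED against MDSC and between 0.73 and 0.79 for MDSC-NP-Blk against MDSC.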

How the results depend on the processing

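Of 660 member fold changes under the alternatives, 623 kept their direction and their side of the adjusted p threshold, 3 lost the threshold, 6 passed it newly, and 28 turned sign. Without the fold change threshold, 7, 7, and 8 members passed in CITED against MDSC, in blank particles against none, and in CITED against blank particles. In CITED against MDSC-NP-Blk, Mmp13 was not called under library totals alone (0 members) and 0 to 1 members were called with a library left out (0 without MDSC-NP-Blk replicate 2 or CITED replicate 3). In CITED against MDSC the count with a library left out was 2 to 3, the third being Mmp13 without MDSC replicate 1.

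Library totals alone turned the log2 fold change of Adam17 to -0.16, Plau to -0.18, and Timp1 to -0.27 for CITED against MDSC, and Adam8 to -0.25 and Timp1 to -0.19 for MDSC-NP-Blk against MDSC. They also took Mmp12 (0.08), Mmp19 (0.08), and Adam17 (0.03) above the adjusted p threshold in MDSC-NP-Blk against MDSC. The other changes of sign were of values near 0. Timp1 in CITED against MDSC was -0.0016 with DESeq2, -0.0047 with median-of-ratios factors, -0.00064 with filterByExpr, -0.0085 with the 8 libraries alone, -0.24 with the length correction, and -0.17 to 0.14 with a library left out. Timp1 in MDSC-NP-Blk against MDSC was -0.19 with the length correction and -0.038 to 0.22 with a library left out, and in CITED against MDSC-NP-Blk -0.23 to 0.071. Adam8 in MDSC-NP-Blk against MDSC was -4.1e-05 with the 8 libraries alone and -0.0016 to 0.026 with a library left out, and Mmp13 was -0.19 to 0.021.

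With the replicate block, 1621, 766, and 441 genes were called in the 3 comparisons, against 1765, 838, and 469 without it, the same numbers of members (2, 0, and 1) were called, and Timp1 in CITED against MDSC was -0.014. The correlation was highest between same-numbered libraries in 3 of 12 cases, and the block turned no other sign.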
